A study of Mus musculus with 24 samples.

Results

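Acetylation of histone H3 at lysine 9 (H3K9ac) was profiled by ChIP-seq, in which DNA bound to the marked histone is precipitated and sequenced, in mouse embryoid bodies, the aggregates that embryonic stem (ES) cells form when they differentiate in suspension. The regions described here are the intragenic ones that lie away from gene ends. They were chosen by the peaks themselves: peaks of all 8 H3K9ac lists were merged where they overlapped by at least 1 bp, and a merged region was kept if it was autosomal, held a peak in at least 4 of the 8 lists, and lay wholly inside the span of a protein-coding gene and more than 2 kb from the start and end of every protein-coding gene. This gave 2304 intragenic regions among 15031 autosomal regions in at least 4 lists (15.3%) and 26034 merged regions in all. They lay in 1854 host genes, 9.0% of the 20665 autosomal protein-coding genes.

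Libraries came from Gcn5-/- cells (called null here) of clones 6_C4 and 4_C2, and from Gcn5 fx/fx cells of clones 6_1 and 4_1. All cells were of the C57BL/6 strain and were taken at day 5 of differentiation. Each isolate pair, pair 6 (6_C4 and 6_1) and pair 4 (4_C2 and 4_1), had 2 libraries per clone, so a genotype was 4 libraries from 2 clones. The labels say neither how Gcn5 was deleted nor whether the fx/fx cells met a recombinase, and effects of a clone and of its genotype can be told apart only as far as both pairs agree. The series' design text calls the replicates independent experiments, 2 for each pair, and each p measures the spread between these libraries. The lists held between 12041 and 20809 peaks, with positions but no heights, so the measurements are whether a region has a peak and how many bases the peaks cover, and sequencing depth is unknown.

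Gcn5 (Kat2a) is the catalytic subunit of the coactivator complexes SAGA and ATAC and acetylates histone H3, lysine 9 included. H3K9ac is a mark of active promoters and is also found at active enhancers. Inside a gene it can therefore mark an alternative promoter, the promoter of a nested non-coding gene or an enhancer in an intron, and the span of the host gene alone does not tell these apart. As a check of the tissue, the 5′ ends of the pluripotency gene Sox2, of Fgf5, a gene of the primed epiblast, and of Tal1, a regulator of blood formation, had a peak in all 8 lists, and that of Otx2, another epiblast gene, in 3 null and 3 fx/fx lists. Of genes of the primitive streak, T had a 5′ end peak in 2 null and 2 fx/fx libraries and Eomes in 2 and 4. Of neural regulators, Sox1 had one in 3 null and 4 fx/fx libraries and Pax6 in 0 and 1. Other markers that were read were not in all 8 lists. Beside Sox2, a 5′ end peak was listed for Nanog in 3 null and 4 fx/fx libraries, with the same counts for Pou5f1. Beside Tal1, Kdr had one in 2 null and 3 fx/fx libraries. Among endoderm genes, Sox17 and Gata6 had one in 2 null and 3 fx/fx libraries, and Gata4 in 1 and 0. Nkx2-5 had one in 3 null and 3 fx/fx libraries and Myc in 3 and 4. The Kat2a 5′ end had a peak in all 8 lists, which does not check the deletion. In these bulk samples, fewer cells that carry the mark and less mark per cell cannot be told apart.

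Annotated starts separated the intragenic regions into kinds that the choice had not used, because only the outer ends of a gene entered it. Start windows of RefSeq (GRCm38.p6), 250 bases before and 50 after each annotated transcription start, were looked up for 2229 regions. The remaining regions lie on a chromosome that this set of windows leaves out. Of the 2229 regions, 830 (37.2%) held, in this set, at least 1 annotated start, 754 of them a start of the host gene and 76 only a start of a non-coding gene. The set does not cover every gene on the other chromosomes either. A region counted here and below as without a start may therefore hold one that the set lacks. The share with a start may be too low for that reason. The windows below come from genes in which 1 internal start lay in an intragenic region of all 8 lists and another internal start lay in no region of any list. They are shown because the number of CG dinucleotides, in capitals, differs between the 2 kinds of start. In each gene they are the start with most CG in a region of 8 lists and the start with fewest CG in no region. The size of the difference between the printed windows therefore comes in part from that choice. Sptbn1 encodes a beta-spectrin of the membrane skeleton, Tlk2 a Tousled-like kinase with a role in chromatin assembly, and Prdm10 a PR-domain zinc finger protein.
Sptbn1, start in a region of 8 lists, chr11:30198208-30198507, minus strand: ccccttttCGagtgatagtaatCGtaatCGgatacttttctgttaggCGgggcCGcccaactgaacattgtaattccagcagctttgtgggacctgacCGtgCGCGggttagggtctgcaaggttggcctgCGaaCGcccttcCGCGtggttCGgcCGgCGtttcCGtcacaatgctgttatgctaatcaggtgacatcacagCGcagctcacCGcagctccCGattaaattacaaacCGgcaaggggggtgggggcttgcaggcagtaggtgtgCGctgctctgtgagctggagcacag
Sptbn1, start in no region, chr11:30219723-30220022, minus strand: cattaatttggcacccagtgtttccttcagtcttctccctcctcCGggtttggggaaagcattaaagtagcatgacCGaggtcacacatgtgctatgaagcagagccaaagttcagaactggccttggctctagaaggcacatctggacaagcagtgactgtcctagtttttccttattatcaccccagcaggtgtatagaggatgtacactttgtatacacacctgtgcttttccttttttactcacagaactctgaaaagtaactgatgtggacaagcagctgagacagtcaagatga
Tlk2, start in a region of 8 lists, chr11:105181277-105181576, plus strand: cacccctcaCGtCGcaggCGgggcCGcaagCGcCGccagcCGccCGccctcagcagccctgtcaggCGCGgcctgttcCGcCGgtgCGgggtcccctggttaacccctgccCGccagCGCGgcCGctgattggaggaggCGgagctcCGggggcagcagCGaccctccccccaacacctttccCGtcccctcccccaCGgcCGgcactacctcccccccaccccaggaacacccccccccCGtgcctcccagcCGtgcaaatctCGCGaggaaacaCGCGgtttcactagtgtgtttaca
Tlk2, start in no region, chr11:105178557-105178856, plus strand: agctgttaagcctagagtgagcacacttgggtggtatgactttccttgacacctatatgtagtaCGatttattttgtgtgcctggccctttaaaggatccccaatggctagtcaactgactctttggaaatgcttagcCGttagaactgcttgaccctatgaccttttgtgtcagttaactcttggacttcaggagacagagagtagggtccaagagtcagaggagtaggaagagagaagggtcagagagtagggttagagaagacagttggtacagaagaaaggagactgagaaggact
Prdm10, start in a region of 8 lists, chr9:31280299-31280598, plus strand: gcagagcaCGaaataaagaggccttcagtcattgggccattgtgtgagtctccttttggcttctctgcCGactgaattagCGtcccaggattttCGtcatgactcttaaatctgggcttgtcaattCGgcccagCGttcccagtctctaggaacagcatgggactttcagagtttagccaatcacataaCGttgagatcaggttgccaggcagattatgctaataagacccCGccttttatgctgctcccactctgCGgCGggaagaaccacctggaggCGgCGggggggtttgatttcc
Prdm10, start in no region, chr9:31313177-31313476, plus strand: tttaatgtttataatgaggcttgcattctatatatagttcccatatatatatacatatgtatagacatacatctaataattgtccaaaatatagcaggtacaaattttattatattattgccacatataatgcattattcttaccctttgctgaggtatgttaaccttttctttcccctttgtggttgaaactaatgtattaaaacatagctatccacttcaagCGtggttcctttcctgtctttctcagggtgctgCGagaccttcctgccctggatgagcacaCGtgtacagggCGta

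The Sptbn1 window in the acetylated region holds 21 CG dinucleotides and the other Sptbn1 window holds 2. The Tlk2 windows hold 29 and 2, and the Prdm10 windows 12 and 4. Among 69 host genes with both kinds of internal start, the window with most CG was richer in the acetylated region in 65, with a median of 28 CG there against 5 at starts in no region. The region of Tlk2 covered 3593 and 4067 bp in 6_C4 and 3385 and 3820 bp in 4_C2, against 3838 and 3894 bp in 6_1 and 3764 and 3896 bp in 4_1, with overlap between the genotypes.

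Over all 5397 annotated starts that lay inside genes and more than 2 kb from their ends, 1130 fell in an intragenic region of at least 4 lists, 597 in another region and 3670 in none. The median number of CG in the 300 bases was 20, 12 and 4 in that order. Of starts with 0 to 4 CG, 2.54% lay in an intragenic region of at least 4 lists. The share was 11.9% at 5 to 9 CG, 40.4% at 10 to 19 CG and 74.5% at 20 or more. Conversely, 93.9% of starts with 0 to 4 CG and 2.47% of those with 20 or more lay in no region at all. The motif GGGCGG, the GC box, searched on both strands, was in 63.3% of the windows in intragenic regions, 9.65% of those in no region and 11295 of all 31396 autosomal start windows. The motif TATAAA, on both strands, was in 5.22%, 16.6% and 13.6%. The GC box holds a CG itself, so its count and the CG count are not separate measures, and a match is a description of the letters only.

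**Figure D1:**
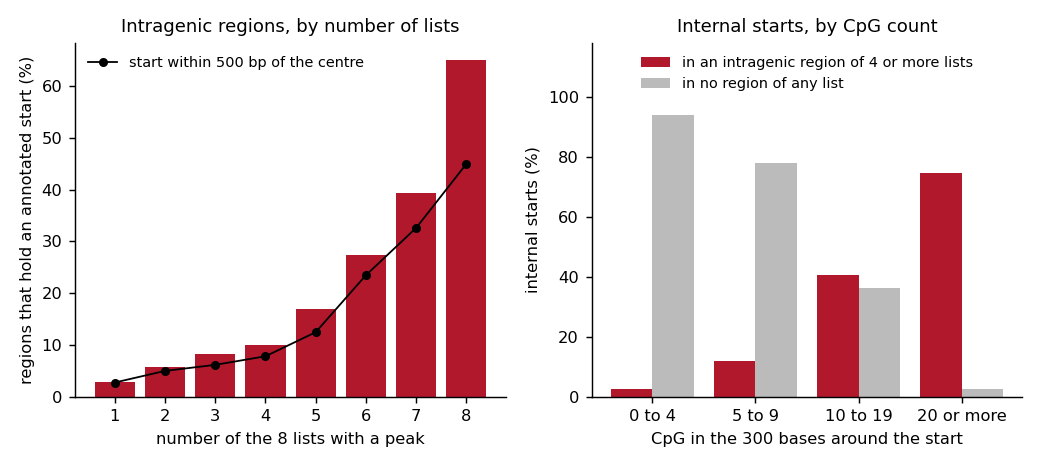
Left, the share of intragenic regions that hold an annotated start (bars, %) by the number of the 8 lists with a peak, with the share that hold one within 500 bp of the region's centre as black points. Right, the share of internal starts (%) that lie in an intragenic region of at least 4 lists (red) or in no region (grey) by the number of CG in the 300-base start window; at 20 or more CG, 74.5% lay in such a region and 2.47% in none.

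Regions found in more libraries more often held a start. The share was 55 of 550 for regions in 4 lists, 16.9% in 5, 27.3% in 6, 39.3% in 7 and 65.1% in all 8. Among intragenic regions left out because they were in 1 to 3 lists, it was 4.08%. Regions in more lists were also longer, with a median merged length of 1974 bp in 4 lists and 2633 bp in 8, and a longer region has more room for a start. Counting only starts within 500 bp of the region's centre, the shares were 7.82% in 4 lists, 12.5% in 5, 23.5% in 6, 32.6% in 7 and 44.9% in all 8. The starts that regions in all 8 lists held were also the richer in CG, with a median of 24 for the richest window of a region, against 9 for regions in 4 lists.

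A nested non-coding gene supplied the start in some hosts. Igf2r, which encodes the receptor that clears insulin-like growth factor 2, and Kcnq1, which encodes a potassium channel, are imprinted genes. Their intragenic regions held the starts of Airn and Kcnq1ot1, the long non-coding RNAs known to silence neighbouring genes on the paternal chromosome. Both windows are printed because each lies inside a region of all 8 lists and holds fewer CG, again in capitals, than the 3 acetylated starts above.
Airn, in Igf2r, chr17:12741061-12741360, plus strand: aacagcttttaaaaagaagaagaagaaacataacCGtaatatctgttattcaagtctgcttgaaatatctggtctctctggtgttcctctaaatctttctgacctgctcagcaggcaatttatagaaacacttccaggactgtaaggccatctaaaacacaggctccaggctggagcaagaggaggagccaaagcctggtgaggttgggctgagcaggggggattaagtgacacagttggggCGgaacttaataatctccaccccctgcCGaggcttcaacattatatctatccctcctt
Kcnq1ot1, in Kcnq1, chr7:143296498-143296797, minus strand: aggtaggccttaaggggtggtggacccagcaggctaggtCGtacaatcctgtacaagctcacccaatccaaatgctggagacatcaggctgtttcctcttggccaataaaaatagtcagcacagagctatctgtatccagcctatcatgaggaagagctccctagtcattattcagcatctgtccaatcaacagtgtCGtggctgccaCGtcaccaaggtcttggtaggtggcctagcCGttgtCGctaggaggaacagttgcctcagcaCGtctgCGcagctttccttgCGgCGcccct

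The Airn window holds 3 CG and the Kcnq1ot1 window 9. The Igf2r region covered 2018 and 1911 bp in 6_C4 and 2196 and 2064 bp in 4_C2, against 1805 and 2039 bp in 6_1 and 1706 and 1484 bp in 4_1. The Kcnq1 region covered 3640 and 3983 bp in 6_C4 and 3659 and 3784 bp in 4_C2, against 3738 and 3749 bp in 6_1 and 3259 and 2264 bp in 4_1. The null libraries of pair 4 were above their fx/fx partners at both, and those of pair 6 overlapped them. In all, 253 regions contained an end of a non-coding gene. Most of those genes were long non-coding RNAs (221) and 12 were microRNA genes, among them Mir148a and Mir330, both in regions of all 8 lists.

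Hosts were long genes. A region lay in 578 of 2313 genes over 100 kb, 14.9% of those of 30 to 100 kb, 8.37% of 10 to 30 kb and 1.05% of 4 to 10 kb. The rule keeps regions more than 2 kb from both ends, so a longer gene leaves more room for one. These shares cannot separate span from the rule. Most hosts (1537) had 1 region, 213 had 2, 61 had 3 and 43 had 4 or more. The median merged length was 2229 bp, with a range of 872 to 15607 bp, and the median distance to the nearest gene end was 11429 bp. Among 1842 regions with 1 host of known strand, 39.4% had their centre in the 5′ of 3 equal parts of the gene, 38.8% in the middle and 21.8% in the 3′ part. Regions with a start leaned more to the 5′ side, with 47.5%, 39.7% and 12.8%, against 33.1%, 38.1% and 28.8% for regions without one. The host's own 5′ end was often not marked: of 1457 hosts over 10 kb of known strand, 50.4% had a 5′ end region in all 8 lists and 31.7% had none in any list, against 56.5% and 27.7% of 9091 other genes over 10 kb.

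**Figure D2:**
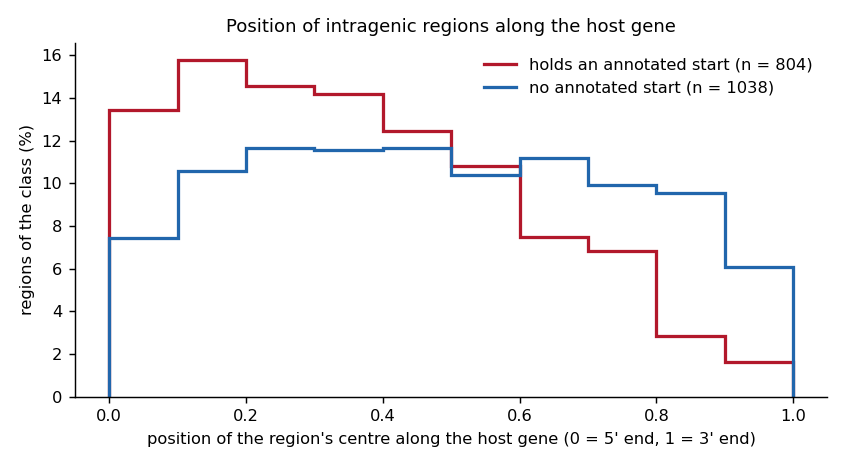
Position of the region's centre along its host gene, in 10 equal bins from the 5′ end (0) to the 3′ end (1), as the share (%) of 804 intragenic regions with an annotated start (red) and of 1038 without one (blue). The red line lies higher at the 5′ side, with 47.5% of regions in the 5′ of 3 equal parts, against 33.1% for the blue line.

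Gse1, which encodes a coiled-coil protein found with histone demethylase and deacetylase complexes, had the most regions, 8 over a span of 352.883 kb. Only 2 of them were in all 8 lists, and each of those held a start of the host gene. The widest, at chr8:120535086-120541129, also held the end of a microRNA gene and covered 5187 and 5017 bp in 6_C4 and 3919 and 3570 bp in 4_C2, against 6044 and 5721 bp in 6_1 and 4027 and 5174 bp in 4_1. Another, at chr8:120555552-120558603, had a peak in the 4 libraries of pair 6 only. Tex14, which builds the intercellular bridges of germ cells, had 7 regions, 4 of them in all 8 lists and none with a start. Counts of 6 regions each were found in Dst, Pxn, Sptbn4, Cuedc1 and Septin9, which encode a cytoskeletal linker, a focal adhesion adaptor, a beta-spectrin, a CUE-domain protein and a septin. All 6 of Sptbn4 had a peak in the 4 libraries of pair 6, and 0 to 2 peaks in pair 4.

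The widest regions lay in genes of varied function. By mean covered length over the 8 libraries, the first 10 were 2 regions of Mpp7, a polarity scaffold, and 1 region each of Myo10, a myosin of filopodia, Zmynd8, a reader of histone acetylation, Bcar1, an adaptor of focal adhesions, Rara, the retinoic acid receptor alpha, Kdm6b, a histone H3 lysine 27 demethylase, the RNA-binding protein gene Rbpms, Ahdc1, and Cic, a repressor that acts downstream of RAS and ERK. Their means ran from 6819 bp at Cic to 10321 bp at Mpp7, against a median of 1309 bp over all 2304 regions, with libraries without a peak counted as 0. Rara covered 8103 and 6595 bp in 6_C4 and 8189 and 5900 bp in 4_C2, against 7837 and 8870 bp in 6_1 and 8028 and 5896 bp in 4_1. Kdm6b covered 5042 and 7431 bp in 6_C4 and 8129 and 9046 bp in 4_C2, against 7590 and 9840 bp in 6_1 and 5362 and 6926 bp in 4_1. The genotypes overlapped at both. Myo10 and Rbpms differed by several times between libraries and are described with the isolate pairs.

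Peaks in these regions were narrower than at gene ends and wider than in intergenic regions chosen by the same distance. In each of the 8 libraries the median covered length of the intragenic regions lay below that of the 11347 regions within 2 kb of a gene end and above that of the 1380 intergenic regions. The mean difference of the medians was -0.37 on the log2 scale against gene ends, with a range over libraries of -0.43 to -0.30, and 0.19 against intergenic regions, with a range of 0.13 to 0.26 (exact sign-flip permutation p = 0.00781 for each, two-sided, n = 8, the smallest the design allows). With each list shortened to its 12041 widest peaks the differences were -0.19 and 0.11. The distance rule itself limits how wide a region away from gene ends can be, so the test against gene ends cannot separate width from the rule. The rule applies to intergenic regions too. Regions without a start lay close to the intergenic ones, with medians of 1443 and 1417.5 bp in 4_C2 replicate 1 and 1833 and 1723 bp in 6_1 replicate 2. Regions with a start were wider than those without by 0.35 on the log2 scale, in 8 of 8 libraries (exact sign-flip permutation p = 0.00781). A longer merged region has more room for a start, with median merged lengths of 2391.5 bp with a start and 2119 bp without. The test cannot separate the 2, and nothing is read from its p.

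**Figure D3:**
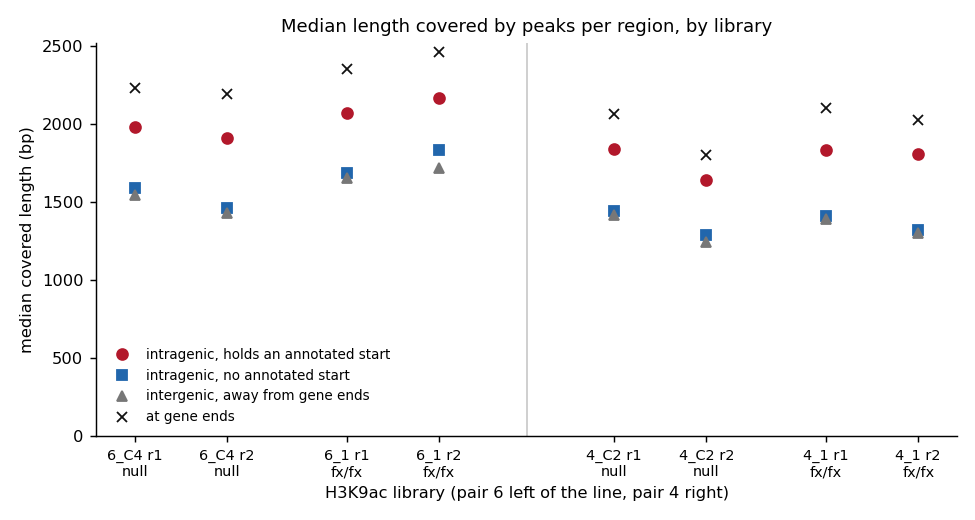
Median length covered by peaks (bp) per region with a peak in each of the 8 libraries, for intragenic regions with an annotated start (red circles) and without one (blue squares), intergenic regions away from gene ends (grey triangles) and regions at gene ends (black crosses). In every library gene ends are highest, followed by intragenic regions with a start, those without one and intergenic regions.

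The difference between genotypes in the number of intragenic regions with a peak was smaller than the spread between libraries. That spread includes the gap between the isolate pairs. The regions were chosen by presence in these same 8 lists without regard to genotype or pair, so each count below describes the chosen regions. Null libraries had a peak in 2146 and 2106 regions (6_C4) and in 1565 and 1110 (4_C2), and fx/fx libraries in 2212 and 2171 (6_1) and in 1760 and 1338 (4_1). Both 6_C4 libraries lay below both 6_1 libraries, the clones of pair 4 overlapped, and within each pair the mean of the null clone was lower, with a difference of -65.5 regions in pair 6 and -211.5 in pair 4. The means were 1732 ± 492 regions for null and 1870 ± 409 for fx/fx (SD over 4 libraries each). A two-sided exact permutation test over the 70 arrangements gave p = 0.686, where 0.0286 is the smallest p it can give. That test ignores the isolate pair. With libraries permuted within pairs the exact permutation p was 0.389, where 0.0556 is the smallest possible. Between same-numbered replicates of a pair, null minus fx/fx ran from -228 to -65 regions (exact sign-flip permutation p = 0.125, the smallest possible). Without replicate 2 of 4_C2, which leaves 2 null libraries of pair 6 and 1 of pair 4, the difference over all libraries was 68.75 regions. As a share of all autosomal regions of a library, the values were 11.4 ± 1.25% in null and 11.7 ± 0.74% in fx/fx lists (exact permutation p = 0.83). The median covered length was 1608 ± 107 bp for null and 1731 ± 175 bp for fx/fx (exact permutation p = 0.314), and the length covered in all was 3.32 ± 1.15 Mb for null and 3.84 ± 1.23 Mb for fx/fx (exact permutation p = 0.514). Between same-numbered replicates of a pair, the length covered in all differed by -0.866 to -0.319 Mb (exact sign-flip permutation p = 0.125).

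The isolate pairs lay further apart. A region seen in the 4 libraries of 1 pair alone was enough to be chosen, so the counts by pair are given as a description, with no test. Pair 6 libraries had a peak in 2159 ± 44.5 intragenic regions and pair 4 libraries in 1443 ± 281 (SD over 4 libraries each). All 4 pair 6 values lay above all 4 pair 4 values. With each list shortened to its 12041 widest peaks the difference was 125.5 regions in place of 715.5. Regions with a peak in all 4 lists of pair 6 and none of pair 4 numbered 306 (13.3%). The background over all autosomal regions in at least 4 lists was 4.82%, with 15.1% of intergenic regions and 1.85% of those at gene ends. The reverse was seen for 5 intragenic regions (0.217%), beside 0.145% of intergenic regions and 0.0264% of regions at gene ends. Pair 6 lists also held more peaks in all, between 17849 and 20809, against 12041 to 15315 in pair 4, and how far list length goes with these counts was not tested beyond the shortened lists.

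Regions with a start were listed in more libraries than those without. Presence in these lists chose the regions, so the shares are a description, with no test. In pair 6, between 96.1% and 98.4% of the 830 regions with a start had a peak, and between 88.4% and 94.6% of the 1399 without. In pair 4, 71.6% to 93.5% of regions with a start had one, and 34.2% to 65.4% of those without. The difference averaged 20.1 percentage points and was positive in 8 of 8 libraries. It was 5.60 points in pair 6 and 34.5 in pair 4. Pair 6 was near the highest share possible for both kinds, which limits its difference, and 276 of the 1399 regions without a start had a peak in pair 6 alone, against 25 of the 830 with one. Between genotypes the difference was 20.5 points in null and 19.6 in fx/fx libraries. Regions without a start averaged 91.6% in pair 6 and 49.5% in pair 4, beside 93.7% and 58.1% of intergenic regions and 98.0% and 88.9% of regions at gene ends.

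**Figure D4:**
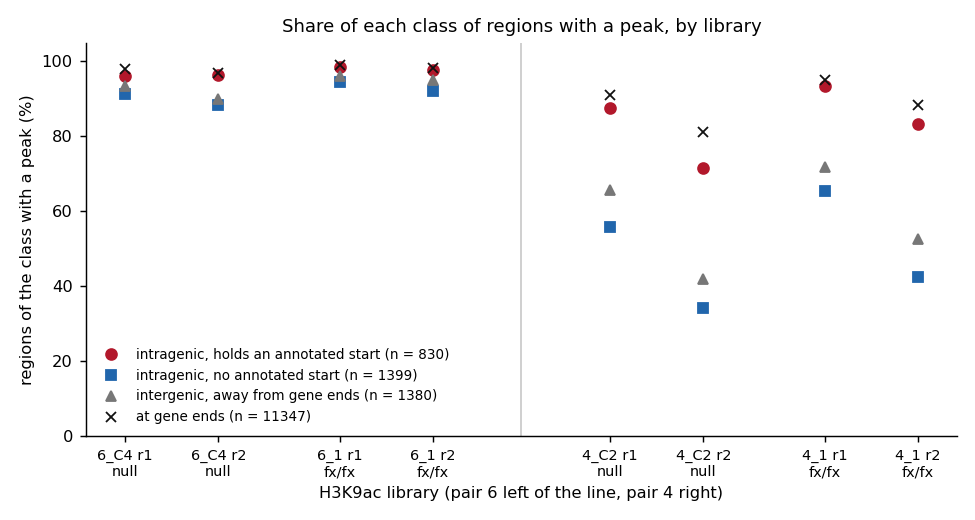
Share (%) of each class of regions with a peak in each of the 8 libraries, null and fx/fx clones of pair 6 left of the line and of pair 4 right of it. Intragenic regions with an annotated start (red circles) lie between 71.6% and 98.4% throughout, while those without one (blue squares) are at 88.4% to 94.6% in pair 6 and 34.2% to 65.4% in pair 4.

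Of the 2304 regions, 629 (27.3%) had a peak in fewer null than fx/fx libraries, 225 (9.77%) in more and 1450 in as many. Fewer null lists were found for 29.1% of intergenic regions and 13.6% of regions at gene ends, and more null lists for 12.2% and 3.42%, so the intragenic shares are near those of intergenic regions. Larger gaps were rare: 23 regions (0.998%) had a peak in at least 3 fewer null libraries, against a background of 0.605%. There were 7 (0.304%) with a peak in at least 3 more, against 0.12%. At least 3 fewer were found for 1.38% of intergenic regions and 0.432% of regions at gene ends, and at least 3 more for 0.217% and 0.0705%. Regions with a peak in all 4 fx/fx libraries and no null library numbered 2 (0.0868%), near the background of 0.106%, and none showed the reverse. Within pair 4, 104 regions had a peak in both fx/fx libraries and neither null library, and 38 the reverse. These were 4.51% and 1.65% of the intragenic regions, beside 4.86% and 1.59% of intergenic regions and 2.20% and 0.308% of regions at gene ends. Of the 104, 13 were on chromosome 8 and 7 on chromosome 11, and of the 38, 2 and 9. These chromosomes hold 150 and 240 of the 2304 regions. Within pair 6 the counts were 22 and 8 (0.955% and 0.347%), beside 14 and 5 of the 1380 intergenic regions and 51 and 18 of the 11347 at gene ends. On chromosome 11 were 7 of the 22 and 4 of the 8. These counts carry no test. Leaving out 1 null library changed the 2 to between 3 and 11, and leaving out 1 fx/fx library changed the 0 to at most 3. Counts over all regions with 1 library left out are not given here, and nothing is read from these changes.

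Those 2 regions lie in Mpp2, which encodes a membrane-associated guanylate kinase scaffold, and Tiam1, which encodes a guanine nucleotide exchange factor for Rac1. Mpp2 is on chromosome 11, whose uneven listing in 4_C2 is given with the widths. At Mpp2 (chr11:102059756-102062107, 2741 bp from the nearest gene end) no peak was listed in null libraries, while fx/fx libraries had 1736 and 1250 bp in 6_1 and 2330 and 1324 bp in 4_1. At Tiam1 (chr16:89959925-89961212, near the middle of the gene) no peak was listed in null libraries, while fx/fx libraries had 1280 and 982 bp in 6_1 and 1085 and 1094 bp in 4_1. Neither region holds an annotated start. A limma fit with a pseudocount of 100 bp, which regions in at least 4 lists could enter, called these 2 of the 2304 regions narrower in null libraries, against a background of 0.111% over all 15383. It restates the absences for which they are named, and nothing is read from it.

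Other regions with at least 3 fewer null lists lay in Lasp1, an actin-binding LIM protein, Cep131, a centrosomal protein, the growth factor gene Fgf9, Csrnp3, Cldn10, a claudin, and Phc2, a subunit of Polycomb complex 1. Fgf9 had 1225 bp in 1 library of 6_C4, no peak in the other and none in 4_C2, against 2489 and 2802 bp in 6_1 and 1261 and 1478 bp in 4_1. Of the 23 regions, those of Cldn10, Csrnp3, Ank2 and Slc35f3 held an annotated start. Cldn10 had 1338 bp in 1 library of 6_C4 and none in the other null libraries, against 1505 and 1535 bp in 6_1 and 1389 and 1514 bp in 4_1. Its start window, picked after its values were seen because a start with many CG (27, in capitals) was in few null lists, lies at chr14:118854700-118854999.
Cldn10, plus strand: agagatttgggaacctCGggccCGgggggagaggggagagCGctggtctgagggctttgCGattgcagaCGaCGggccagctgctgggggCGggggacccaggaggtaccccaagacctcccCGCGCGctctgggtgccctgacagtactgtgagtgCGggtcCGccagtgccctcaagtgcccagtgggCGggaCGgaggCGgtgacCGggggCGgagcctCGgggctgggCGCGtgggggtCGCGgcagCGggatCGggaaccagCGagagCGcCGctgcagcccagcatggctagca

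The 7 regions with at least 3 more null lists included those in Btbd11, a BTB-domain protein, Clic5, an intracellular chloride channel protein, Gpsm1, a modulator of G-protein signalling, Hspg2, the proteoglycan perlecan, Rtkn, and Lsp1, an F-actin-binding protein. Btbd11 covered 1395 and 1112 bp in 6_C4 and 1264 and 1095 bp in 4_C2, against 1418 bp in 1 library of 6_1 and no peak in the other 3 fx/fx libraries. Clic5 covered 1172 and 986 bp in 6_C4 and 1791 and 1411 bp in 4_C2, against 1408 bp in 1 library of 6_1 and none in the other 3. Of the 7, the regions of Btbd11, Clic5 and Rtkn held a start. The start windows of these 3 hold 3, 16 and 2 CG in that order, while on the side with fewer null lists those of Csrnp3 and Slc35f3 hold 11 and 29. The Btbd11 window, picked after its values were seen as one with few CG, lies at chr10:85598161-85598460.
Btbd11, plus strand: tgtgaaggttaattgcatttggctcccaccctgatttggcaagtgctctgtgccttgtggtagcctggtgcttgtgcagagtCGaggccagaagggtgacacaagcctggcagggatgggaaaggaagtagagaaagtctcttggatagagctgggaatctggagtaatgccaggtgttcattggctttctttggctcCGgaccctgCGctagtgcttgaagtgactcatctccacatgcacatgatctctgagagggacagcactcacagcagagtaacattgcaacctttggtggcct

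Covered length could be tested between genotypes in the 872 intragenic regions with a peak in all 8 lists, within a limma fit of all 10171 such regions that took out each library's median and the isolate pair. No region passed at an adjusted p under 0.05, intragenic or other, in either direction (background 0.0% each). At an unadjusted p under 0.05, 21 intragenic regions were narrower and 49 wider in null libraries, of 327 and 378 over all regions. The median log2 difference was 0.03 over the 872 regions and 0.02 over all. Before each library's median was taken out, 96 were narrower and 0 wider at the unadjusted threshold, with a median of -0.11, against -0.12 over all regions, so the split between narrower and wider depends on that centring. Regions with a start had a median of 0.03 (222 of 546 below 0) and those without one also 0.03 (122 of 293 below 0).

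The regions with the lowest p on the narrower side lay in Cnnm2, a magnesium transport protein, Pde4d, a cyclic AMP phosphodiesterase, Prx, periaxin, Fblim1, a filamin-binding protein, Rbpms, Ptprs, a receptor tyrosine phosphatase, Rere, a transcriptional coregulator, and Uri1, a prefoldin-like protein. Cnnm2, whose region held a host gene start, covered 2710 and 1909 bp in 6_C4 and 1380 and 1363 bp in 4_C2, against 3325 and 3433 bp in 6_1 and 2861 and 2847 bp in 4_1. All 4 null values were below all 4 fx/fx values, and the log2 difference was -0.68 ± 0.14 (SE, limma adjusted p = 0.625). Prx covered 1327 and 1278 bp in 6_C4 and 1177 and 1144 bp in 4_C2, against 1924 and 2631 bp in 6_1 and 1693 and 1408 bp in 4_1, again with no overlap (-0.46 ± 0.12, limma adjusted p = 0.714). Pde4d had -0.41 ± 0.11 and Fblim1 -0.44 ± 0.13, each with a limma adjusted p of 0.714.

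On the wider side the lowest p values were those of Igf2r, Synpo, which encodes an actin-associated protein, Arhgef10l, a guanine nucleotide exchange factor gene, Hsf5, a heat shock factor family gene, Unc13b, a vesicle priming factor, Denn2b, Tex14 and Srcin1. Igf2r, with the Airn start, had a log2 difference of 0.36 ± 0.10 (SE, limma adjusted p = 0.714), which was 0.16 within pair 6 and 0.57 within pair 4. Synpo and Arhgef10l had 0.28 ± 0.08 and 0.29 ± 0.08, each with a limma adjusted p of 0.714. Tex14, Hsf5 and Srcin1 are on chromosome 11. In 4_C2, 78.8% and 56.7% of the chromosome 11 regions had a peak, against 66.7% and 47.2% of regions elsewhere, while in 4_1 these were 80.4% and 61.2%, against 75.9% and 57.7%. The part of this chromosome's uneven listing in the widths of these 3 regions was not tested.

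Of the 872 intragenic regions with a peak in all 8 lists, Myo10 and Rbpms had the largest differences in width between the pairs. Myo10 covered 13479 and 13011 bp in 6_C4 and 1670 and 827 bp in 4_C2, against 14048 and 14466 bp in 6_1 and 6135 and 4987 bp in 4_1. Rbpms covered 9861 and 9994 bp in 6_C4 and 1072 and 658 bp in 4_C2, against 12192 and 13007 bp in 6_1 and 6339 and 3361 bp in 4_1. At both, all pair 6 libraries were above all pair 4 libraries, and the 4_C2 libraries were the lowest of the 8. The genotype difference was 0.02 in pair 6 and -2.09 in pair 4 at Myo10, and -0.22 and -2.31 at Rbpms. The difference between these effects was 2.11 ± 0.30 at Myo10 (SE, limma adjusted p = 0.208) and 2.10 ± 0.35 at Rbpms (limma adjusted p = 0.307), and no region passed that test (background 0.0% in each direction). At an unadjusted p under 0.05, 41 of the 872 regions had a lower null effect in pair 6 and 25 a higher one, beside 396 and 281 of all 10171 regions. Without replicate 1 of 4_C2, Myo10 passed it (2.48 ± 0.18, limma adjusted p = 0.0237). The other regions with the lowest p for this difference lay in Irx2, a homeobox gene, Abhd18 and Cln8, at each of which both 4_C2 libraries were the lowest of the 8.

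The Rbpms and Cln8 regions are on chromosome 8. In 4_C2, 52.7% and 37.3% of the chromosome 8 regions had a peak, against 69.0% and 48.9% of regions elsewhere, while in 4_1 these were 74.0% and 52.7%, against 76.6% and 58.4%. The part of this in the widths was not tested. The Myo10 region held a host gene start, whose window at chr15:25752956-25753255 is printed because it belongs to the region with the largest difference between the effects among those 872. It holds 6 CG, in capitals.
Myo10, plus strand: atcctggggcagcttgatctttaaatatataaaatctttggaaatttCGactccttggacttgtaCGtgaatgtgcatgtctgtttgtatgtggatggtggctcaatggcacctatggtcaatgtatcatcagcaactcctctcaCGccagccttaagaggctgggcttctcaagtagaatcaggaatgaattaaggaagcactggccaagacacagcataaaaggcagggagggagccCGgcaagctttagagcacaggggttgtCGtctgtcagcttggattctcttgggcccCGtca

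Widths also differed between the pairs. In the same fit, 33 of the 872 intragenic regions were wider in pair 6 (3.78%, background 4.32%) and 27 were narrower (3.10%, background 2.52%) at an adjusted p under 0.05. These shares are near the background. The wider ones had log2 differences of 0.38 to 2.24 and the narrower ones of -1.28 to -0.30. Without centring, 217 were wider and 3 narrower, beside 2724 and 22 of all 10171 regions. Dnmt1, the maintenance DNA methyltransferase, covered 9739 and 8075 bp in 6_C4 and 7377 and 10356 bp in 6_1 in pair 6, against 2526 and 2783 bp in 4_C2 and 4728 and 3878 bp in 4_1 in pair 4 (1.12 ± 0.17, SE, limma adjusted p = 0.00724). The Gnas region with the end of Gnasas1, the antisense transcript of this imprinted locus, covered 5857 and 4392 bp in 6_C4 and 5849 and 5697 bp in 6_1, against 1929 and 1530 bp in 4_C2 and 1677 and 1321 bp in 4_1 (1.49 ± 0.12, limma adjusted p = 0.000256). The other Gnas region, which holds 3 host gene starts, showed no such gap and covered 5026 and 5274 bp in 6_C4 and 5567 and 5169 bp in 6_1, against 5359 and 4194 bp in 4_C2 and 5642 and 4215 bp in 4_1 (-0.14 ± 0.10, limma adjusted p = 0.406). Among the narrower ones were Hsf5 (-0.53 ± 0.11, limma adjusted p = 0.0227) and 1 region of Tex14 (-0.48 ± 0.09, limma adjusted p = 0.0137). Both are on chromosome 11, as are the narrower regions of Mgat1, Hdac5, Cwc25, Stat5b, Grb2, Acaca and Wnt3. The wider regions lay on other chromosomes. In pair 6 libraries 81.25% to 87.5% of chromosome 11 regions had a peak, against 92.3% to 97.0% of regions elsewhere, while in pair 4 the chromosome 11 share was the higher. The part of this in the widths was not tested.

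**Figure D5:**
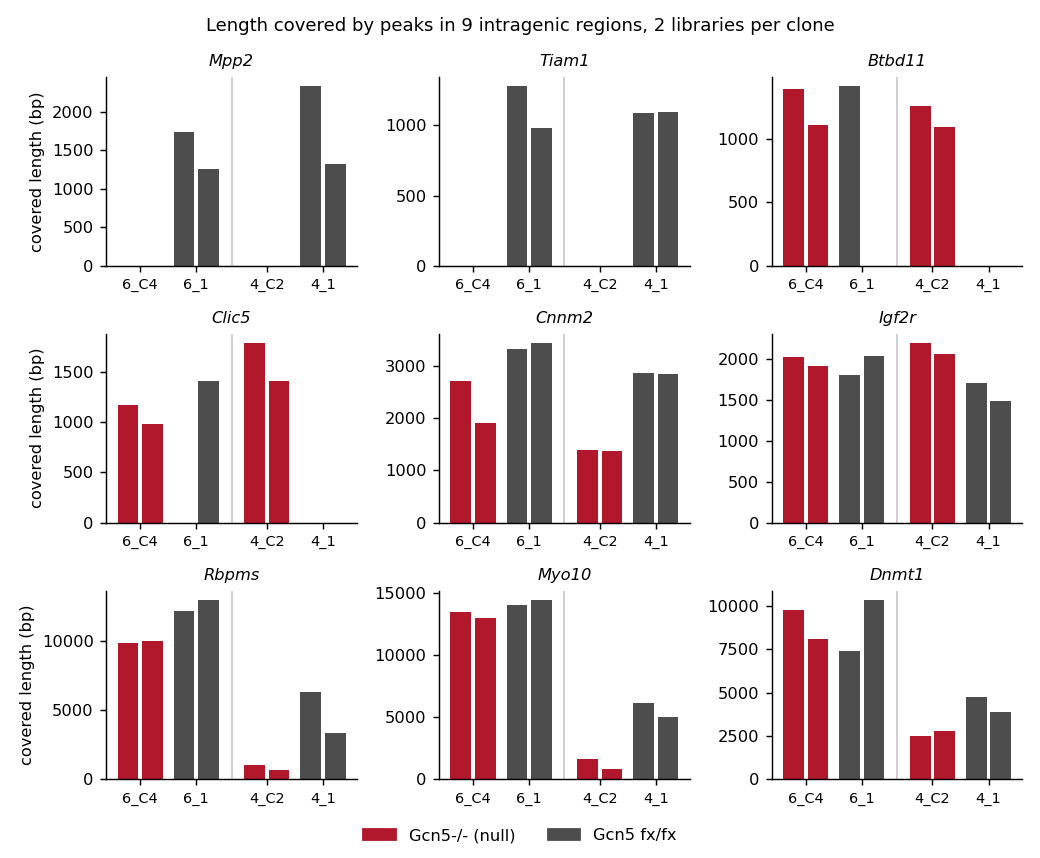
Length covered by peaks (bp) in 9 intragenic regions named by their host gene, 2 bars (libraries) per clone, pair 6 left of the line and pair 4 right of it, null clones in red and fx/fx clones in grey; a missing bar means no listed peak. Mpp2 and Tiam1 have no red bar, Btbd11 and Clic5 have 1 grey bar each, and the 4_C2 bars of Rbpms and Myo10 are the lowest of their panels.

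Gene lists for signalling, lineage and chromatin were read for how often they hosted a region, beside 9.0% of all autosomal protein-coding genes and 16.5% of those over 20 kb. Regulators of the cytoskeleton hosted most often, with 19 of 39 genes and 38 regions, at a median span of 133.668 kb. Other chromatin regulators followed with 22 of 53 genes and 28 regions. Of the chromatin regulators' regions, 14 of 28 were in all 8 lists, against 37.8% overall. Imprinted genes hosted in 8 of 25 with 13 regions, 10 of them in all 8 lists. At the low end, p53 targets and apoptosis genes hosted in 1 of 26 (Sesn1) and housekeeping genes in 2 of 26 (Rab7 and Ywhaz). Long genes had more regions, so these counts go with span as well as with the list. The lists were chosen with earlier results of these data known, so their order is a description and nothing is read from it.

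The SAGA, ATAC and other histone acetylation list, which holds the complexes of Gcn5 itself, hosted in 9 of 49 genes with 12 regions. Its hosts included Atxn7, a SAGA subunit, Brd3, an acetyl-lysine reader, the deacetylases Hdac4, Hdac5, Hdac7 and Hdac9, and the acetyltransferase Kat6a. Its 5 testable regions had a median log2 difference of 0.14 between genotypes, with 2 below 0. Within the chromatin regulators, the widest regions after Kdm6b were those of Dnmt1, Cbx7, a Polycomb chromodomain protein, and Kdm2a, a lysine demethylase. Cbx7 covered 8973 and 8756 bp in 6_C4 and had no peak in 4_C2, against 8520 and 9483 bp in 6_1 and 3948 and 2192 bp in 4_1. The 14 testable regions of the list had a median log2 difference of 0.04, with 5 below 0. Within the cytoskeleton list 13 of 38 regions had a peak in fewer null than fx/fx libraries and 5 in more. Over all regions these were 27.3% and 9.77%. Mpp2 and Tiam1 are among the 13, and the list was chosen with earlier results known, so nothing is read from this count. Its 14 testable regions had a median of -0.01, with 7 below 0. The 10 testable regions of imprinted genes had a median of 0.12, with 1 below 0, beside 0.03 with 355 of 872 below 0 over all intragenic regions, and none of them passed (lowest limma adjusted p = 0.714).

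Of the signalling lists, the RAS, ERK and p38 cascade hosted regions in 11 of 48 genes, the Wnt pathway in 8 of 42, and FGF ligands and receptors in 5 of 25. Of the 8 FGF regions, 6 had a peak in fewer null than fx/fx libraries and none in more. Of the 9 Wnt regions, 5 had fewer null lists and 1 more. Over all intragenic regions these were 27.3% and 9.77%, and the list counts are small and carry no test. An Fgfr1 region covered 3705 and 4270 bp in 6_C4 and had no peak in 4_C2, against 3885 and 5031 bp in 6_1 and 1265 and 1124 bp in 4_1. Of 12 regions of the RAS, ERK and p38 list, 3 had fewer null lists and 1 more. Grb2, the adaptor that links receptors to RAS, covered 1878 and 2606 bp in 6_C4 and 2712 and 2570 bp in 4_C2, against 1895 and 2083 bp in 6_1 and 2318 and 2139 bp in 4_1 (0.34 in log2, limma adjusted p = 0.714). In the Notch and Hedgehog list, the Ptch1 region covered 6013 and 5965 bp in 6_C4 and 5063 and 3713 bp in 4_C2, against 6589 and 7068 bp in 6_1 and 5200 and 5153 bp in 4_1 (-0.09 ± 0.08, SE, limma adjusted p = 0.823).

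Naive and core pluripotency genes had 10 regions in 5 of 22 genes, 1 of them, in Lin28a, in all 8 lists. A peak in fewer null libraries was found for 5 and in more for 1, beside 27.3% and 9.77% of all intragenic regions. Lin28a, the inhibitor of let-7 processing, covered 3405 and 2535 bp in 6_C4 and 1310 and 1761 bp in 4_C2, against 3269 and 4054 bp in 6_1 and 1737 and 1932 bp in 4_1. Neural genes had 16 regions in 9 of 29 genes, 2 of them in all 8 lists, with fewer null lists for 7 and more for 2. The Pax6 region covered 1334 and 3099 bp in 6_C4 and 1637 and 1308 bp in 4_C2, against 2761 and 3263 bp in 6_1 and 3424 and 2936 bp in 4_1. Its log2 difference was -0.70 (limma adjusted p = 0.714), and without replicate 2 of 6_C4, the high null library, it was -1.01 ± 0.10 (limma adjusted p = 0.0343), the single intragenic region called by genotype in the fits with 1 library left out. Blood and endothelial genes had 10 regions in 7 of 22 genes, 4 of them in all 8 lists, with fewer null lists for 3 and more for 3. Endoderm genes hosted in 2 of 22, Gata4 and Dab2, with no region in all 8 lists.

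Regions close to the thresholds were as follows. The 10 nearest inside 2 kb lay 2001 to 2031 bp from a gene end, were in 4 to 8 lists and had mean covered lengths of 546 to 2425 bp with a median of 1557 bp. The 10 nearest outside lay at 1944 to 1998 bp, were in 4 to 8 lists and had means of 832 to 3037 bp with a median of 2004 bp. Regions in 4 lists numbered 558, with a median covered length of 1477 bp where present, and the 654 regions in 3 lists that were left out had 1356 bp.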

How the data were processed

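H3K9ac chromatin immunoprecipitation libraries of day 5 embryoid bodies were sequenced by the submitters. Per the submitters' processing notes, Bowtie 1.1.2, MACS 1.4.2 and the genome build mm10 were used. The deposited lists, 1 per library, hold the chromosome, start and end of each peak and no score, so depth is unknown and covered length in bp was computed from positions. The sources used here do not say whether input or total H3 libraries entered peak calling. Total H3 and input libraries (16 samples) were not analysed here.

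Peaks were merged over the 8 lists and classified by RefSeq genes and start windows of GRCm38.p6, the mm10 assembly, with pandas 2.3.3. Presence was compared between genotypes by exact permutation over libraries. Log2 covered length was compared with limma 3.58.1, centred on each library's median and adjusted by Benjamini-Hochberg over all 10171 regions in 8 lists. The fit was tested on simulated data. Regions were named by size, by lowest p, by difference in lists, by regions per gene and by gene list. Members and lists were chosen with earlier results of these data known. Alternatives changed the list minimum, distance, merging, presence, list length, scaling, terms and libraries used.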

Additional observations from a re-analysis of the deposited data

Results flagged for a closer look

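The gap between intragenic regions with and without an annotated start, in the share with a peak, differed between pair 6 and pair 4 by -28.9 percentage points (5.60 in pair 6 and 34.5 in pair 4). It is given as a description, with no test, because presence in these lists chose the regions: 276 of the 1399 without a start had a peak in pair 6 alone, and pair 6 was near the highest share possible.

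Among 203 genotype groups of 4 libraries with a peak in each, over the named regions, 10 had 1 library far from the other 3, and chance gives about 1 in 20. In null libraries these were Grb2 (1878 bp in 6_C4 replicate 1), Fgf12 (1164 bp in 4_C2 replicate 2), Ptprs (3154 bp in 6_C4 replicate 2) and Hspg2 (3040 bp in 6_C4 replicate 2). In fx/fx libraries they were Map3k1 (3271 bp), Hdac7 (1834 bp), Ptprs (3232 bp) and Sema4b (2975 bp), all in 6_1 replicate 1, Ywhaz (4646 bp in 6_1 replicate 2) and Arhgef2 (2759 bp in 4_1 replicate 2). Without the high null library, the other null values of Ptprs were 1350 to 1639 bp.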

How the results depend on the processing

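Of the values given for 7 per-library comparisons, the directions of covered length and of the differences from gene ends and intergenic regions held under every alternative run. The null minus fx/fx difference in regions with a peak ran from -316 to 68.75 with 1 library left out, changing sign without replicate 2 of 4_C2, which leaves 1 null library of pair 4. The difference in share ran from -0.633 to 0.319 percentage points, changing sign without replicate 2 of 4_C2 and without replicate 2 of 6_1, and was 0.412 with regions in all 8 lists and 0.0365 when peaks had to cover at least 50% of a region; the cause was not tested. Regions in all 8 lists give no difference in number. The pair 6 minus pair 4 difference ran from 604 to 821 regions with 1 library left out. Regions in all fx/fx and no null libraries were 4 when at least 50% had to be covered, and 2 to 11 with 1 library left out. The reverse counts were 1 and 0 to 3 in that order. Counts over all regions under these settings are not given here. With a pseudocount, which lets regions of 4 or more lists enter, limma called 2 of 2304 narrower in null. It called 17 with a lower and 69 with a higher null effect in pair 6, and 53 narrower and 361 wider in pair 6. Over all 15383 regions of that fit these counts were 17, 60, 286, 408 and 1020 in that order. A region listed in pair 6 alone could enter this fit, so nothing is read from the pair counts. Without centring, 3 were narrower and 217 wider in pair 6. With 1 library left out, limma called 0 to 1 narrower in null, and 7 to 15 narrower and 19 to 30 wider in pair 6. Over all 10171 regions these were 0 to 1, 55 to 117 and 262 to 362 in that order.

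Replicate numbers paired the libraries weakly at most: the differences between replicates 1 and 2 correlated at 0.0624 between 6_C4 and 6_1 and at 0.109 between 4_C2 and 4_1. Between clones of different pairs the correlations ran from -0.0258 to 0.0267. With the replicate block, limma called 0 regions by genotype (27 narrower and 38 wider before adjustment, at p under 0.05), and the difference in number stayed at -138.5 (exact permutation p = 0.125, the smallest possible over 16 sign patterns).

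Peak lists carry no heights, so a weak region just above and just under the caller's threshold cannot be compared, and clones of 1 genotype number 2.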
